A study of Glycine max with 12 samples.

Results

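Among the genes of a soybean seed coat RNA-seq table, 8 of 56044 were at least 1 log2 unit higher in biological repeat 3 than in both repeat 1 and repeat 2 in each of the 4 groups of the study. That is 0.0143% of all genes. The unit was log2(RPKM + 1), where RPKM is the number of read hits on a transcript, scaled to transcript length and library total. Each gene was represented by its longest transcript model. The rule allowed up to 200 genes ordered by their mean excess, and since only 8 met it, all 8 were kept. It also left out glycinin and beta-conglycinin storage protein genes, and none of the 16 identifiers recalled for these from the literature met it. The genes were chosen by the repeat 3 excess itself, in all 12 libraries, so it is given below as a description with no test. The opposite pattern, repeat 3 lower by at least 1 in all 4 groups, was met by 68 genes.

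The study compared immature seed coats of 2 lines whose coats are destined to carry a black saddle on yellow. Clark 8 (PI 547450) is i-k at the I locus and K1, whereas Clark 18a (PI 547439) is i-i and k1, so a difference between the lines cannot be assigned to K1 alone. Seeds weighed 100 to 200 mg, the coats were dissected into the future black and the future yellow region and lyophilized, and polyadenylated RNA of each line and region was sequenced in 3 biological repeats, 12 libraries in all. Whether separate plants gave the repeats is not in the labels, and the p-values reflect only how far these libraries spread, which may be technical.

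The seed coat is maternal tissue that surrounds the embryo, feeds it and, in pigmented genotypes, deposits anthocyanins and proanthocyanidins made from chalcone synthase products. In soybean the I locus restricts pigment to parts of the coat through small RNAs that silence chalcone synthase, while the title of the series names mutations in Argonaute5, a small RNA binding protein, beside K1. The 8 genes below have no stated link to either locus. Neither the deposited table nor the reference gene table used here pairs the Glyma identifiers with names, so the genes are given by identifier, no function is stated, and the tissue could not be checked against marker genes. The digits after "Glyma." give the chromosome.

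The 4 libraries of repeat 3 differed from the others in more than these genes. They were the shallowest, with 83123127 to 89505760 summed hits against 118123345 to 192296346 in repeats 1 and 2, summed over all transcript models, which can count a read more than once. Their library numbers formed 1 later run across both lines, whereas repeats 1 and 2 were numbered 54 to 57 in Clark 18a and 72 to 75 in Clark 8. Within a group, log2(RPKM + 1) of repeats 1 and 2 correlated across the tested genes at 0.951 to 0.978, and pairs with repeat 3 at 0.871 to 0.954. Of 69 genes chosen on repeats 1 and 2 because they differed between the lines by at least 2 log2 units, in 1 direction, in both regions there, 12 kept the direction in both regions of repeat 3 and 1 still differed by at least 1 in both. Since repeats 1 and 2 are numbered by line, a line difference there and a difference between sets of libraries cannot be told apart. Whether a repeat 3 library goes against its line label could not be settled from these values, so the line names of repeat 3 below are those of the labels, and the comparisons are also given without repeat 3. The part that depth or library set plays in the excess of the 8 genes was not tested.

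The 8 genes were mostly short. Their coding lengths were 315 bases for Glyma.01G209400, 246 for Glyma.03G212600, 267 for Glyma.11G208000, 186 for Glyma.11G225100 and 279 for Glyma.13G041900. In these 5 the model held no base outside the coding part, and they would encode 104, 81, 88, 61 and 92 amino acids. Glyma.15G115000 and Glyma.12G159800 were a pair of like lengths, with 504 and 483 coding bases (167 and 160 amino acids) in cDNAs of 1058 and 1023 bases. Glyma.03G261800 was the long exception, with 2247 coding bases, 748 amino acids and a cDNA of 3218 bases. It was also the 1 gene with more than 1 model. Its 5 models gave mean excesses of 1.78 to 1.80, which largely count the same hits.

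**Figure D1:**
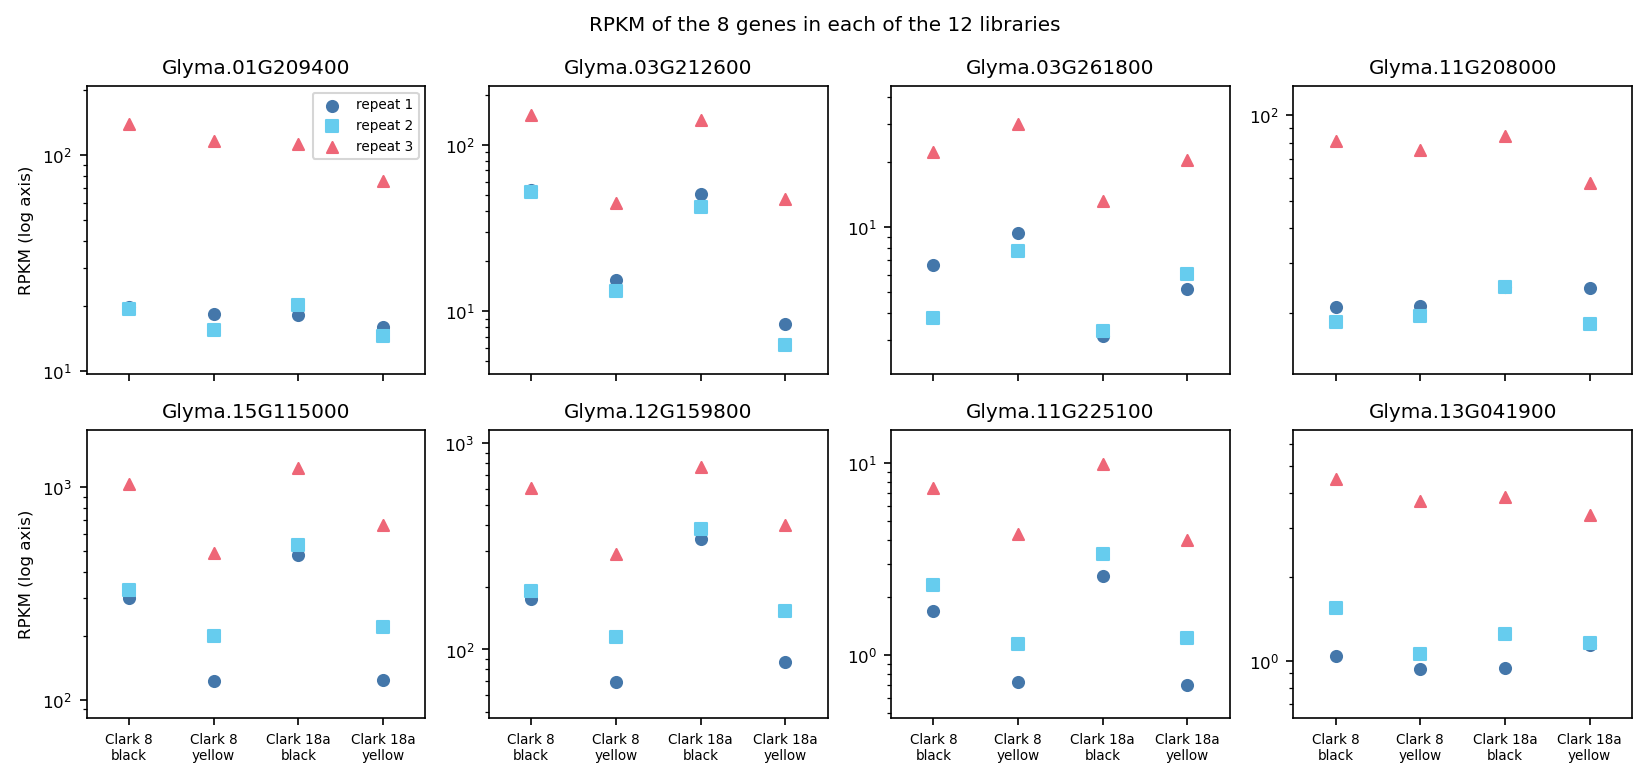
RPKM (log axis) of each of the 8 genes in the 12 libraries, by line and region, with 1 point per library. The triangle, repeat 3, is the highest point of every group, as the rule requires. For 5 genes every triangle also lies above every circle and square of the panel, which the rule favours. The share of all genes with such a separation was not worked out.

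Glyma.01G209400 had the largest excess and was nearly level across the groups otherwise. Its RPKM in repeats 1, 2 and 3 was 19.7, 19.4 and 139 in Clark 8 black and 18.4, 15.5 and 116 in Clark 8 yellow. The Clark 18a values were 18.1, 20.3 and 112 in black and 16.0, 14.5 and 75.7 in yellow. Repeats 1 and 2 stayed within 14.5 to 20.3 RPKM in all 4 groups, and the lowest repeat 3 value was 75.7. Repeat 3 was 4.96 to 7.10 times the mean of repeats 1 and 2, and these values rest on 710 to 1116 hits in repeats 1 and 2 and 2135 to 3640 in repeat 3. Among the 30775 genes tested, it moved from the 85.6th to 89.4th percentile of a library in repeats 1 and 2 to the 98.5th to 99.2nd in repeat 3.

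Glyma.11G208000 had a similar level in repeats 1 and 2. Its RPKM was 21.1, 18.7 and 81.0 in Clark 8 black and 21.2, 19.6 and 75.7 in Clark 8 yellow. For Clark 18a the values were 24.7, 24.7 and 84.7 in black and 24.5, 18.3 and 57.5 in yellow. Repeats 1 and 2 spanned 18.3 to 24.7 RPKM, with both Clark 18a black libraries at the upper end. Repeat 3 was 2.69 to 4.07 times their mean. As in Glyma.01G209400, the lowest of the repeat 3 values was that of Clark 18a yellow.

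Glyma.13G041900 was the third gene with flat levels, but a low one, at 36 to 59 hits in repeats 1 and 2 and 83 to 104 in repeat 3. Its RPKM was 1.04, 1.55 and 4.48 in Clark 8 black and 0.932, 1.06 and 3.74 in Clark 8 yellow. In Clark 18a it was 0.939, 1.24 and 3.87 in black and 1.14, 1.16 and 3.32 in yellow. All 4 repeat 3 values lay above the other 8. On the log2(RPKM + 1) scale its excess was 1.01 to 1.27, with the smallest mean of the set, and the added 1 understates it at such a level. As a ratio of RPKM it was 2.90 to 3.76, about as large as in more abundant members. Hit counts speak to counting error only, not to variation between libraries. Reads without molecular identifiers are not independent molecules.

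Glyma.11G225100, the shortest of the set, was equally scarce but differed by region. Its RPKM was 1.69, 2.33 and 7.44 in Clark 8 black and 0.727, 1.14 and 4.29 in Clark 8 yellow. The Clark 18a values were 2.57, 3.37 and 9.90 in black and 0.703, 1.23 and 3.96 in yellow. Black exceeded yellow within each repeat of both lines, and repeat 2 exceeded repeat 1 in each group. The values rest on 21 to 84 hits in repeats 1 and 2 and 66 to 157 in repeat 3, and repeat 3 was 3.33 to 4.59 times the mean of the other repeats.

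Glyma.03G212600 carried the steepest difference between regions. Its RPKM was 53.4, 51.9 and 150 in Clark 8 black and 15.4, 13.1 and 44.9 in Clark 8 yellow. For Clark 18a the values were 50.4, 42.1 and 141 in black and 8.33, 6.28 and 46.9 in yellow. The repeat 3 value of a yellow region thus lay close to the repeat 1 and 2 values of the black region, and the ranges of repeat 3 and of the other repeats overlapped across groups. Repeat 3 was 2.85 to 3.15 times the mean of repeats 1 and 2 in 3 groups and 6.42 times in Clark 18a yellow, where the 2 other libraries were the lowest of all 12.

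The most abundant members were Glyma.15G115000 and Glyma.12G159800, which stood in the top 2% of tested genes in every library. Glyma.15G115000 measured 302, 329 and 1040.4 RPKM in Clark 8 black and 123, 201 and 493 in Clark 8 yellow. In Clark 18a it measured 478, 533 and 1239 RPKM in black and 124, 219.5 and 664 in yellow. Black lay above yellow within every repeat, and Clark 18a black above Clark 8 black. Repeat 3 was 2.45 to 3.86 times the mean of repeats 1 and 2. In the yellow region of both lines repeat 2 was also above repeat 1, by 0.70 log2 units in Clark 8 and 0.82 in Clark 18a, so these libraries were not level even without repeat 3.

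Glyma.12G159800 followed the same course at a lower RPKM. It measured 176, 192 and 605 RPKM in Clark 8 black and 69.6, 115 and 292 in Clark 8 yellow. In Clark 18a it measured 345, 383 and 771 RPKM in black and 87.1, 154 and 401 in yellow. Its repeat 3 values were 2.12 to 3.33 times the mean of repeats 1 and 2, with the smallest excess in Clark 18a black, where repeats 1 and 2 were already high. Over the 8 libraries of repeats 1 and 2, the log2 levels of the pair correlated at r = 0.985, and each correlated with the far scarcer Glyma.11G225100 at 0.982 and 0.964. These 8 libraries share the region difference and the library sets, so the correlations are descriptions.

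The RPKM ratio of the pair was higher in every Clark 8 library than in every Clark 18a library. Glyma.15G115000 was 1.72, 1.71 and 1.72 times Glyma.12G159800 in Clark 8 black and 1.76, 1.74 and 1.69 times in Clark 8 yellow. In Clark 18a the ratio was 1.39, 1.39 and 1.61 in black and 1.43, 1.43 and 1.66 in yellow. Repeat 3 of Clark 18a lay nearer to Clark 8 than repeats 1 and 2 did. The ratio was chosen after its values were seen and is given as a description. Whether the genes share reads is not given.

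Glyma.03G261800, the long member, was the 1 gene of the set with higher levels in yellow. Its RPKM was 6.64, 3.77 and 22.2 in Clark 8 black and 9.42, 7.74 and 30.1 in Clark 8 yellow. In Clark 18a it was 3.12, 3.29 and 13.2 in black and 5.15, 6.04 and 20.5 in yellow. Yellow exceeded black, and Clark 8 exceeded Clark 18a, within every repeat. Its repeat 3 excess was 1.71 to 1.94 log2 units or 3.51 to 4.27 times.

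**Figure D2:**
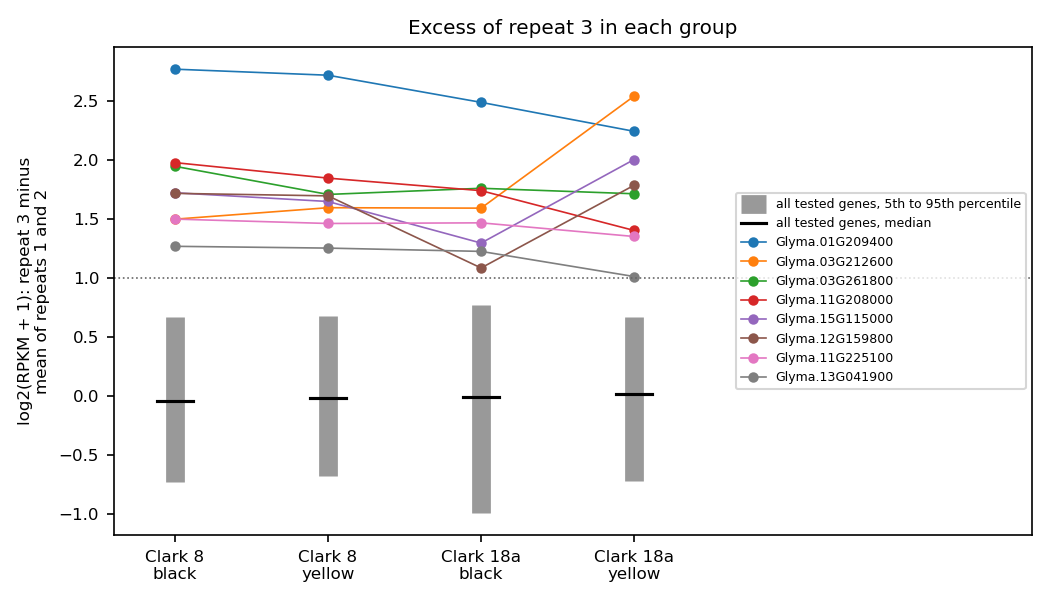
Excess of repeat 3 over the mean of repeats 1 and 2, in log2(RPKM + 1), for the 8 genes in each group (points, with thin lines joining the values of a gene), beside the 5th to 95th percentile (grey bar) and median (black line) of the 30775 tested genes. The dotted line marks 1, and the points run from 1.01 to 2.77 while the medians of all genes lie between -0.04 and 0.01.

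By group, the 8 genes had a median excess of 1.72 in Clark 8 black, 1.67 in Clark 8 yellow, 1.53 in Clark 18a black and 1.75 in Clark 18a yellow. The 95th percentile of all tested genes lay at 0.66 to 0.77. An excess of at least 1 over both other repeats was met by 348, 292, 376 and 236 genes in these groups taken singly, by 184 genes in exactly 2 groups and by 29 in exactly 3. Together the 8 genes made up 0.0777% to 0.286% of the summed RPKM in repeats 1 and 2, and 0.314% to 0.686% in repeat 3. In each group the share in repeat 3 was more than that in repeats 1 and 2, which the rule fixes.

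Genes lay close to the limit of the rule on both sides. Just inside it, the lowest excess over the higher of repeats 1 and 2 was 1.00 for Glyma.13G041900, 1.01 for Glyma.12G159800 and 1.15 for Glyma.11G225100. Just outside were Glyma.11G002000 at 0.98, Glyma.19G260900 at 0.96 and Glyma.10G144700 at 0.93. Glyma.19G260900, with 2250 coding bases and a cDNA of 3168, is close in length to Glyma.03G261800. The ratio of RPKM of Glyma.03G261800 to it was 0.730 to 0.989 in repeats 1 and 2 and 0.997 to 1.24 in repeat 3, a ratio chosen after its values were seen. Whether they share reads is not given. The other neighbours of the limit were short in coding length, 312 and 384 bases, with cDNAs of 948 and 851.

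Short coding length was shared beyond the 8 genes. A lower limit of 0.5 in all 4 groups was met by 179 further genes, whose median coding length was 462 bases, against 297 for the 8 genes and 1068 for all tested genes. A coding length of up to 504 bases was found in 7 of the 8 genes (87.5%), in 103 of the 179 (57.5%) and in 5573 of the 30775 tested (18.1%). The limit of 504 bases is the greatest coding length among the 8 genes with the longest left out. The 7 of the 8 was therefore fixed by the choice of limit and is no finding. The shares of the 179 and of all tested genes were not fixed by it. The models with no base outside the coding part were 5 of the 8 (62.5%), 31 of the 179 (17.3%) and 3279 of the tested genes (10.7%). A length of 315 bases is the greatest among those 5 of the 8. The 638 tested genes with no base outside the coding part and a length of up to 315 bases had a median excess of -0.35. Their 5th to 95th percentile was -1.59 to 0.81, and 31.0% of them lay above 0. Over all tested genes the median was -0.02. The spread of the excess was wider among short and among abundant genes, and no set of genes was tested for enrichment.

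**Figure D3:**
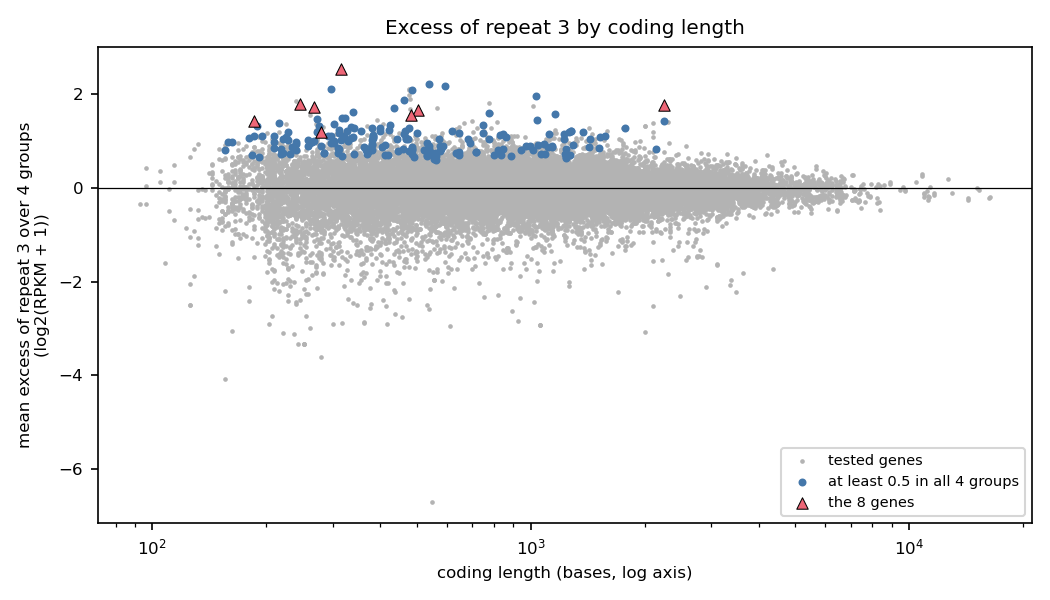
Mean excess of repeat 3 over the 4 groups, in log2(RPKM + 1), against coding length in bases (log axis) for the tested genes (grey), the 179 genes with at least 0.5 in all 4 groups (blue) and the 8 genes (red triangles). Of the triangles, 7 stand at 504 bases or less and 1 at 2247, and the grey cloud of short genes extends further below 0 than above it.

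Genes next to the 8 by identifier lay well below the limit. Of the 32 genes at the nearest 2 identifiers on each side, 15 passed the filter on low values, and their mean excess ran from -0.42 to 0.39 with a median of -0.07. None of the 32 met the rule. Glyma.03G212500, next to Glyma.03G212600, had a mean excess of 0.05. The 8 identifiers lie on chromosomes 1, 3, 11, 12, 13 and 15, with no pair adjacent.

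**Figure D4:**
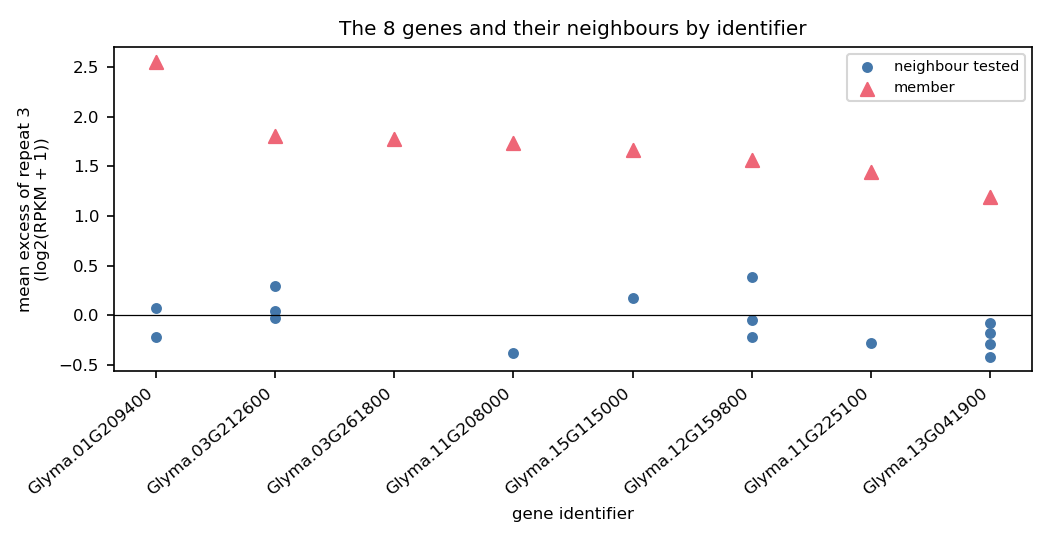
Mean excess of repeat 3 over the 4 groups, in log2(RPKM + 1), for each of the 8 genes (triangles) and for those of its 4 nearest genes by identifier that passed the filter (circles). The circles lie between -0.42 and 0.39, below every triangle, and Glyma.03G261800 had no neighbour that passed.

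The comparison of regions asks where in the coat these genes were higher, which the rule did not use. In limma, fitted to log2(RPKM + 1) of genes that reached 1 RPKM in 3 or more libraries, all 8 genes entered the test. They could hardly fail to, since they are high in the 4 repeat 3 libraries. Within Clark 8, 7 of the 8 lay above 0 (higher in black) with a median difference of 0.43, against -0.07 over all tested genes. With adjusted p under 0.05, 0 of the 8 were called, where 13.9% of all tested genes were. An unadjusted p under 0.05 was found for 1 of the 8 and for 8433 of the 30775 tested. The median moved by over 1.5 times without any 1 of the 6 Clark 8 libraries, from -0.036 with 4 of the 8 above 0 (without black repeat 3) to 1.13 (without yellow repeat 3), and was 0.42 without all 4 repeat 3 libraries. Leaving out 1 library changes the weight of repeat 3 in the mean of its group. Here and below, such shifts follow largely from the excess that chose the genes and do not check direction. The fit to all 12 libraries counts that excess as spread within the groups.

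With the repeat number as a block, 5 of the 8 passed within Clark 8, against 24.3% of all tested genes. Glyma.03G212600 was higher in black by 1.78 log2 units (SE 0.212, limma adjusted p = 0.000559 with the block and 0.155 without), and its 3 repeats gave 1.73, 1.90 and 1.72. Its black libraries, at 51.9 to 150 RPKM, did not overlap the yellow ones at 13.1 to 44.9. Glyma.15G115000 and Glyma.12G159800 were higher by 1.03 each (limma adjusted p = 0.00935 and 0.00896 with the block, 0.409 and 0.376 without). Glyma.11G225100 was higher by 0.65 in 3 of 3 repeats (limma adjusted p = 0.000506 with the block, 0.549 without). Glyma.03G261800 was lower in black by a difference of -0.58 in 3 of 3 repeats (limma adjusted p = 0.0252 with the block, 0.683 without). The rule kept genes with an excess of at least 1 log2 unit in every group, with no upper limit. It thereby favours genes that follow a shared repeat term, so p-values from the block may be too small for them.

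Without the 4 repeat 3 libraries, 1 of the 8 passed within Clark 8, against 14.1% of all tested genes. That was Glyma.03G212600, at 1.82 log2 units (limma adjusted p = 0.000962). In the repeat 3 pair, which that fit left out but the rule used, the same gene gave 1.72. A term for each line and repeat, an alternative added after the data were examined, left the count in Clark 8 at 5, against 37.1% of all tested genes.

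In Clark 18a the 5 genes that passed with the block were the same ones as in Clark 8. Again 7 of the 8 lay above 0, with a median difference of 0.73 against -0.02 over all tested genes. Leaving out 1 library took the median from 0.16 with 4 of the 8 above 0 (without Clark 18a black repeat 3) to 1.33 (without yellow repeat 3), it moved by over 1.5 times for each Clark 18a library but black repeat 2, and it was 0.67 without all 4 repeat 3 libraries. Limma called 0 of the 8 without the block, against 15.0% of all tested genes, and 5 of the 8 with the block, against 25.7%. Without the block, 1 of the 8 had an unadjusted p under 0.05, as had 8771 of the 30775 tested. Glyma.03G212600 was higher in black by 2.20 log2 units (SE 0.212, limma adjusted p = 0.000187 with the block, 0.0786 without). Its repeats gave 2.46, 2.57 and 1.56, so the difference was smallest in repeat 3. Glyma.12G159800 was higher by 1.41 and Glyma.15G115000 by 1.37 (limma adjusted p = 0.00185 and 0.00215 with the block, 0.208 and 0.246 without). Their repeats gave 1.97, 1.31 and 0.94 for the former and 1.94, 1.28 and 0.90 for the latter. Glyma.11G225100 was higher by 1.06, with 1.07, 0.97 and 1.13 in the repeats (limma adjusted p = 4.88e-05 with the block, 0.278 without). Glyma.03G261800 was lower in black by -0.63, with -0.58, -0.72 and -0.60 in the repeats (limma adjusted p = 0.0173 with the block, 0.631 without).

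Without repeat 3, 4 of the 8 passed within Clark 18a, against 15.3% of all tested genes, and all 4 were higher in black. They were Glyma.03G212600, Glyma.11G225100, Glyma.12G159800 and Glyma.15G115000, with limma adjusted p-values of 0.000322, 0.0159, 0.0178 and 0.0214. In the repeat 3 pair, left out of that fit but used by the rule, they gave 1.56, 1.13, 0.94 and 0.90. That pair is therefore no independent check. Glyma.03G261800, which passed with the block, did not pass there at -0.65 (limma adjusted p = 0.098). Glyma.01G209400, Glyma.11G208000 and Glyma.13G041900 gave 0.32, 0.21 and -0.04 and passed in neither line. With a term for each line and repeat, 6 of the 8 passed in Clark 18a, against 39.0% of all tested genes. The gene gained was Glyma.01G209400 at 0.40 (limma adjusted p = 0.0182), with 0.17, 0.46 and 0.56 in the repeats. Its direction turned when 1 of 2 single libraries was left out, to -0.43 without Clark 18a black repeat 3 and -0.01 without yellow repeat 2. Those turns follow largely from the excess that chose the gene. In bulk tissue, more cells of a type and more RNA per cell cannot be told apart.

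**Figure D5:**
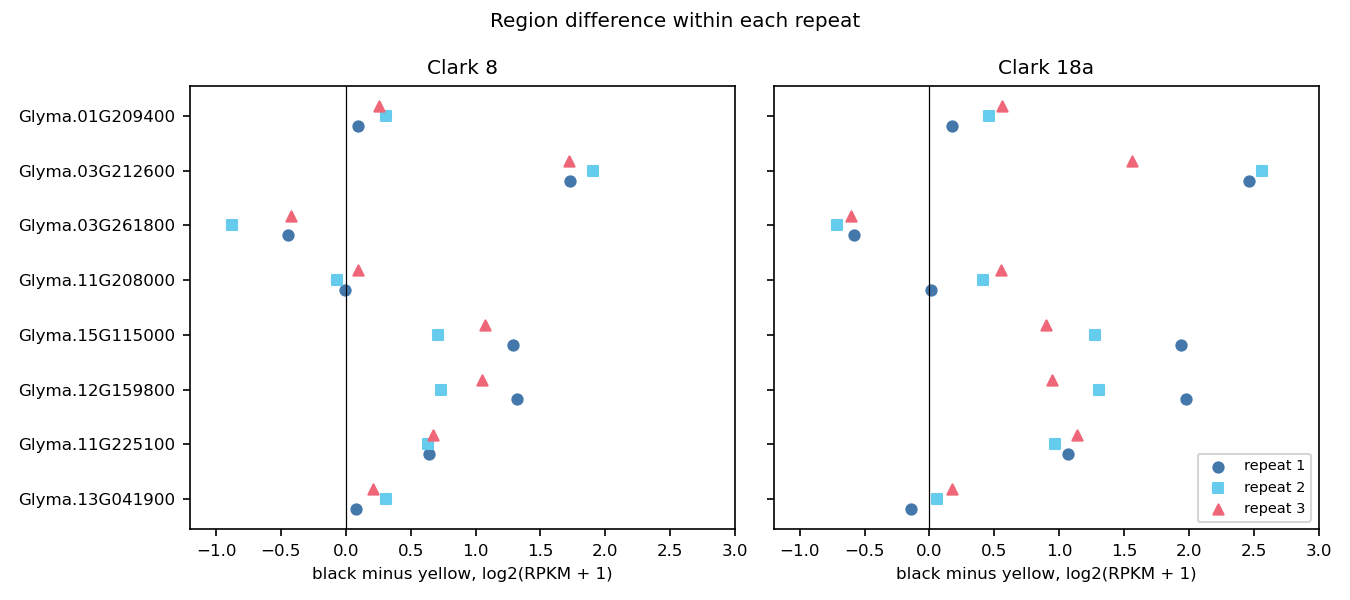
Black minus yellow difference in log2(RPKM + 1) within each repeat for the 8 genes, in Clark 8 (left) and Clark 18a (right), with 1 point per pair of libraries. Glyma.03G261800 lies left of 0 in all 6 pairs, and Glyma.03G212600, Glyma.15G115000, Glyma.12G159800 and Glyma.11G225100 lie right of 0 in all 6.

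Between the lines, none of the 8 was called in limma in black (25 genes, 0.0812% of those tested, were) or in yellow (0.413%). None of the 8 had an unadjusted p under 0.05, where 1726 in black and 4115 in yellow of the 30775 tested had. That fit counts the repeat 3 excess as spread within the groups, so its lack of calls does not show that the lines are alike. With the block none was called either, against 0.169% of all tested genes in black and 0.676% in yellow. An unadjusted p under 0.05 was then found for 4 of the 8 in black and 2 in yellow. Over the 30775 tested genes it was found for 3652 and 6934. Without repeat 3, none was called in black, against 4.03% of all tested genes. There 1 of the 8 had an unadjusted p under 0.05, as had 5626 of the 30775 tested. In black, 4 of the 8 lay above 0 (higher in Clark 18a) with a median of 0.05, and in yellow 3 did with a median of -0.06. The medians of all tested genes were 0.02 and -0.02. Leaving out 1 library took the medians of the 8 from -0.45 (without Clark 18a black repeat 3) to 0.84 (without Clark 8 black repeat 3) in black, and from -0.52 (without Clark 18a yellow repeat 3) to 0.49 (without Clark 8 yellow repeat 3) in yellow. Glyma.12G159800 had the largest difference in black, 0.77 (SE 0.213 and limma adjusted p = 0.273 with the block), from 0.97, 0.99 and 0.35 in the repeats. Glyma.03G261800 was lower in Clark 18a in 3 of 3 repeats of both regions, at -0.58 in black and -0.53 in yellow (limma adjusted p = 0.252 and 0.113 with the block). The differences turned to 0.063 without Clark 8 black repeat 3 and to 0.034 without Clark 8 yellow repeat 3. These turns, like the shifts of the medians, follow from the excess that chose the genes, so they do not check direction. In yellow, Glyma.03G212600 gave -0.81 and -0.96 in repeats 1 and 2 and 0.06 in repeat 3. Without repeat 3 it passed at -0.88 (limma adjusted p = 0.0191, against 11.8% of all tested genes), in libraries that are numbered by line.

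The interaction compares the region difference of one line with that of the other, and it was not called for any of the 8 in limma. That held with and without the block, while 5 of all tested genes (0.0162%) were called without the block and 0 with it. An unadjusted p under 0.05 was found for 1 of the 8 with the block, against 1405 of the 30775 tested. Without the block it was found for none of the 8, against 767. The fit without the block counts the repeat 3 excess as spread, so its lack of calls does not show equal region differences. Without repeat 3, 0 of the 8 were called in limma, against 0.00325% of all tested genes. There 1 of the 8 had an unadjusted p under 0.05, as had 2153 of the 30775 tested. In 6 of the 8 the region difference was larger in Clark 18a, with a median of 0.33 against 0.03 over all tested genes. That median moved by over 1.5 times without any 1 of the 12 libraries, from -0.25 with 0 of the 8 above 0 (without Clark 8 yellow repeat 3) to 0.91 with 8 above 0 (without Clark 8 black repeat 3). With the block, the gene with an unadjusted p under 0.05 was Glyma.11G225100, at 0.41 (SE 0.107, limma adjusted p = 0.922). Without repeat 3 it was Glyma.03G212600, at 0.70 (SE 0.236, limma adjusted p = 0.563). Both interactions turned negative, to -0.078 and -0.12, without Clark 8 yellow repeat 3. These turns, like the shifts of the median, follow largely from the excess that chose the genes.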

How the data were processed

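The deposited table held RPKM values for 88647 transcript models of 56044 genes, made by the authors, with coding and cDNA lengths per the file headers. The aligner was Bowtie 1, per the submitters' processing notes. Not given in the sources used here are the build, annotation version, strandedness and handling of multiple hits. Hits were recovered as RPKM times cDNA length, divided by a unit taken as 1 hit in each library. That unit came from the smallest nonzero products of the library. The result was whole for 100% of values under 50 hits (tolerance 0.05 hits).

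The 8 genes and all gene lists were chosen with earlier results of these data known. All 8 are named. Log2(RPKM + 1) of 30775 genes entered a linear model in limma 3.58.1, under R 4.3.3 (1 mean per group, intensity trend, all 12 libraries), with Benjamini-Hochberg adjustment over all genes and a two-sided threshold of 0.05. The fit without the block was tested on simulated data with independent noise and no shared repeat effect. That test does not bear on p-values from the block. Alternatives were a pseudocount of 0.1, no filter, a minimum of 5 RPKM, quantile normalization, the block, and leaving out repeat 3 or single libraries. Same-numbered libraries deviated together from their group means, at r = 0.522 to 0.745 between regions of a line. Between lines, r was 0.124 to 0.503 in the same region and 0.036 to 0.432 across regions. The repeat was therefore also fitted as a block. A shift of repeat 3 alone also makes repeats 1 and 2 deviate together, so r does not show that repeats 1 and 2 are paired. The link between numbers is from these data, as the labels do not state it. The 27 lists defined by annotation words could not be used, since no table annotates the identifiers (0 reference lines carry one). The lyophilized tissue and the extraction adapted for procyanidins were the same in all groups, per the labels.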

Additional observations from a re-analysis of the deposited data

How the results depend on the processing

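The set itself held 8 genes with quantile normalization (7 shared) and with the most abundant model of each gene (8 shared), and 21 with a pseudocount of 0.1 (8 shared, 17 of the 21 above the filter). The counts of members called between regions were 0 in each line with a pseudocount of 0.1, no filter, a minimum RPKM of 5 (6 members tested) or quantile normalization. Of all tested genes, 12% to 13.8% were called there in Clark 8 and 12.7% to 15.8% in Clark 18a. In Clark 8 and Clark 18a the member counts were 5 and 5 with the replicate block, 5 and 6 with the block by line and repeat, and 1 and 4 without the repeat 3 libraries. The shares of all tested genes for these fits are given above. Leaving out 1 library at a time gave 0 throughout in Clark 8 and 0 to 1 in Clark 18a, the 1 being Glyma.03G212600 without Clark 18a yellow repeat 3 (limma adjusted p = 0.0127). Over all tested genes these fits called 8.28% to 15.6% in Clark 8 and 9.59% to 18.5% in Clark 18a. The fit that called Glyma.03G212600 called 13.2%. Between lines in yellow the count was 1 without repeat 3, against 11.8% of all tested genes. All other counts between lines and for the interaction were 0, where at most 4.03% of all tested genes were called. The difference of Glyma.01G209400 between regions of Clark 18a ran from -0.43 to 1.14 when 1 library was left out, turning to -0.43 without Clark 18a black repeat 3 and -0.01 without yellow repeat 2. That of Glyma.03G261800 between lines ran from -1.17 to 0.063 in black and from -1.10 to 0.034 in yellow, turning without the repeat 3 library of Clark 8 black and of Clark 8 yellow. The interaction ran from -0.080 to 0.91 for Glyma.11G225100, negative without Clark 8 yellow or Clark 18a black repeat 3. For Glyma.03G212600 it ran from -0.12 to 1.26, negative without these or Clark 18a yellow repeat 2 (-0.10). The region differences of the 5 genes that passed with the block kept their direction in both lines under the alternatives run, though without 1 library that of Glyma.03G261800 shrank to -0.014 in Clark 8 and -0.062 in Clark 18a, and that of Glyma.11G225100 to 0.15 in Clark 8. With 1 library left out, its group has fewer repeats than the others, and no block was fitted. The weight of repeat 3 in that group changes too, so the shifts follow largely from the excess that chose the genes. Fits that kept repeat 3 without a block counted its excess as spread, so their counts of 0 do not show absence of a difference. The scarce members rest on as few as 21 hits in a library.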

Other observations

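Of the 29 genes that met the excess in exactly 3 of the 4 groups, the group that failed was most often Clark 18a black, in 13. Glyma.02G307500 (537 coding bases) had a mean excess of 2.22 and Glyma.12G130800 (297 coding bases) had 2.11. Glyma.13G279900 (1032 coding bases) had 1.97 and Glyma.06G167000 (777 coding bases) had 1.81. These genes had larger means than all but 1 of the 8 genes. Glyma.02G307500 failed in Clark 18a yellow, with an excess over the higher of repeats 1 and 2 of 0.59. Glyma.12G130800, Glyma.13G279900 and Glyma.06G167000 failed in Clark 18a black, at 0.74, 0.61 and 0.19.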
